A study of Arabidopsis thaliana with 18 samples.

Results

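Transcripts of jaz10 mutant plants were compared with those of wild-type Col-0 plants (Col) across 2 treatments, a water mock (control) and methyl jasmonate (MeJA). All 4 arrays titled jaz10 and all 4 arrays titled Col were used, 8 of the 18 arrays of the series, with 2 arrays in each of the groups Col control, Col MeJA, jaz10 control and jaz10 MeJA. The double mutant jaz10phyb was not part of the jaz10 group. The 10 arrays of phyb and jaz10phyb plants entered only where they are named.

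RNA came from whole Arabidopsis thaliana plants that were 4 weeks old, grown in short days, sprayed with 250 µM MeJA or with water and harvested 3 h later. Each sample pooled at least 4 plants. The labels name no jaz10 allele, and the other mutants carry phyB-9, a loss-of-function allele of the red-light receptor phytochrome B. Whether replicate pools were raised apart is not labelled, and p-values here reflect pool-to-pool spread alone, which may be technical. The factorial design asks how JAZ10 and phytochrome B bear on the response to MeJA.

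JAZ proteins are repressors of jasmonate signalling. The active hormone, jasmonoyl-isoleucine, brings them to the receptor COI1 for degradation, which frees MYC and other transcription factors to activate defence, wound and pigment genes. JAZ10 is itself among the genes that jasmonate switches on, and acts as a feedback repressor. Enzymes that inactivate the hormone are switched on in the same response, among them the jasmonate-induced oxygenases JOX1 to JOX4, which hydroxylate jasmonic acid.

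Of the 38408 probe sets, 14444 reached 50 signal units on at least 1 array, and 5689 genes were tested with 1 probe set each. Array medians lay between 14.87 and 17.5 signal units, so the minimum of 50 is well above the typical probe set, and a value under 50 is a dim one. Neither JAZ10 nor PHYB had a probe set annotated to it alone, so the genotype could not be checked through its own transcript. Of 20 genes within 10 places of JAZ10 in the gene order, 3 were tested and none was called. Of 13 leaf markers 1 had a named probe set. This gene, RCA, Rubisco activase, read 2968 to 3508 in Col and 3067 to 3393 in jaz10. Of 26 root markers 3 had one, and of 18 flower and pollen markers 3, while none of 19 seed markers did. The root hair expansins EXPA7 and EXPA18 and the flower and pollen genes VGD1, SWEET8 and OLEO3 stayed under 10 in all 8 arrays, while PYK10, a beta-glucosidase of endoplasmic reticulum bodies that is abundant in roots, read 706 to 1655. In such bulk samples, fewer cells of a type and less RNA per cell cannot be told apart.

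Treatment separated the 8 arrays along the first principal component, which held 77.1% of the variance. The second held 6.59% and separated the genotypes only after MeJA, with jaz10 MeJA at 9.93 and 5.4 and Col MeJA at -8.77 and -7.54. On the first component, jaz10 control replicate 2 stood at 15.3, nearer to the MeJA side than jaz10 control replicate 1 at 22.1 and the Col control arrays at 21.6 and 23.1.

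Over both treatments, 2 genes were higher and 2 were lower in jaz10 than in Col by limma at an adjusted p under 0.05, each 0.0352% and together 0.0703% of the 5689 genes tested. The higher ones were JOX4 and JOX3, oxygenases that turn jasmonic acid into its inactive hydroxylated form. The lower ones were AT3G27240 and AT3G27210, which lie close together on chromosome 3 and have no symbol in the annotation used. Before adjustment, 191 genes were higher and 287 lower at p under 0.05. The median gene differed by -0.02 on the log2 scale, and none of the 5689 genes differed by more than 1. Of all genes, 43.5% had higher signal in jaz10, but 58.7% did with arrays centred on their medians. Which direction held the larger share of genes thus depended on array scaling. The arrays of the genotypes did not overlap in either treatment for 160 genes with higher signal in jaz10 (2.81%) and 258 with lower signal (4.54%). All 4 jaz10 arrays were above all 4 Col arrays for 36 genes (0.633%) and below them for 62 (1.09%).

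JOX4 (AT2G38240) read 14.7 and 14.2 in the Col control arrays and 23.4 and 26.4 in the jaz10 control arrays. After MeJA it read 145 and 146 in Col and 345 and 332 in jaz10. The jaz10 arrays were above the Col arrays within each treatment, and the control values of both genotypes were under 50. Averaged over the treatments, JOX4 was higher by 0.98 ± 0.074 log2 (SE, 4 arrays per genotype), a 1.97-fold difference, with a limma adjusted p of 0.00245. The difference was 0.74 ± 0.11 in control plants (adjusted p = 0.124) and 1.21 ± 0.11 after MeJA (adjusted p = 0.00732). The difference between these values, 0.47, had an adjusted p of 0.322, so a larger genotype difference after MeJA was not shown. After MeJA, JOX4 was not called with no signal filter (limma adjusted p = 0.126), with all probe sets (0.0583) or in the fit of all 18 arrays (0.693). The MeJA call ended without any 1 of the 4 MeJA arrays, with adjusted p of 0.125 to 0.207.

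JOX3 (AT3G55970, listed as JRG21 in the annotation) read 11.3 and 10.7 in Col control and 22.2 and 27.5 in jaz10 control. After MeJA its signal was 223 and 224 in Col and 313 and 279 in jaz10. As for JOX4, the jaz10 arrays lay above the Col arrays within each treatment. JOX3 was higher by 0.75 ± 0.089 log2 over both treatments, or 1.68-fold, with a limma adjusted p of 0.024. Its control difference of 1.102 ± 0.13 gave the lowest p of all higher genes in control plants but was not called (adjusted p = 0.0723), and its MeJA difference was 0.40 ± 0.13 (adjusted p = 0.256). Set beside this, MeJA minus control was 4.23 log2 in Col and 3.53 in jaz10 for JOX3, and 3.25 and 3.72 for JOX4.

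The third measured member, JOX2 (AT5G05600), read 28.0 and 26.3 in Col control and 31.5 and 42.0 in jaz10 control, against 169 and 164 in Col MeJA and 189 and 186 in jaz10 MeJA. The genotypes did not overlap in either treatment, but the difference of 0.29 ± 0.097 log2 did not pass the test (limma adjusted p = 0.5). Of 15 listed genes of jasmonate catabolism, 3 were tested, the 3 JOX genes. Their median was 0.75 log2, beside -0.02 for all genes, and 2 were called.

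**Figure D1:**
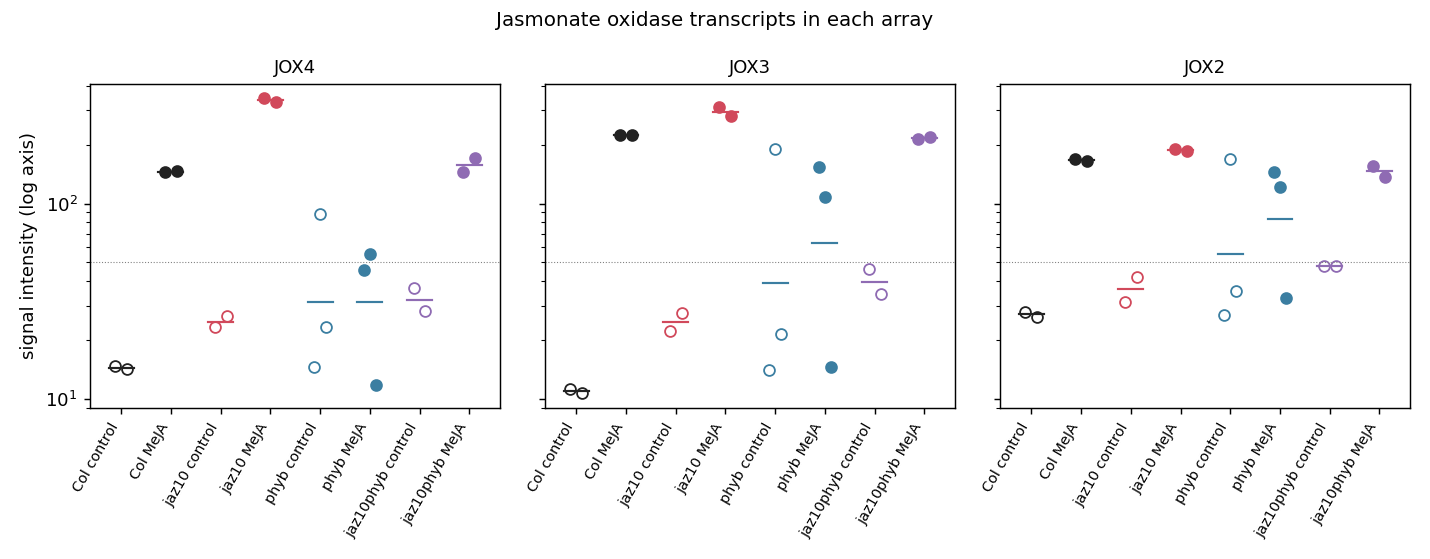
Signal intensity (log axis) of JOX4, JOX3 and JOX2 in each of the 18 arrays, with open points for control, filled points for MeJA, bars for the group mean on the log2 scale and a dotted line at 50. Within each treatment the jaz10 arrays lie above the Col arrays for each of the 3 genes, and 1 phyb control array and 1 phyb MeJA array lie on the side of the other treatment.

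The JOX4 call held in 19 of 20 alternative settings and each time an array was left out (differences 0.94 to 1.02, highest adjusted p 0.0401). It was lost in the fit of all 18 arrays, with an adjusted p of 0.992. There the phyb arrays entered the shared spread, and JOX4 read 88.3 in the array labelled phyb control 2, while the other phyb control arrays read 14.5 and 23.3, and 11.8 in the array labelled phyb MeJA 3, while the other phyb MeJA arrays read 45.6 and 54.9. Without those 2 arrays the adjusted p of JOX4 was 0.00815. The JOX3 call held in 6 of 20 settings: leaving out any array other than jaz10 control replicate 1 ended it, with adjusted p from 0.0567 without jaz10 control replicate 2 to 0.177 without jaz10 MeJA replicate 1. Its difference stayed between 0.68 and 0.83 in those fits. With 16 arrays, without phyb control 2 and phyb MeJA 3, JOX3 was not called either (limma adjusted p = 0.106). The same held with no signal filter (0.171) and with all probe sets (0.121).

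A jaz10 mutation was also measured without phytochrome B, by jaz10phyb against phyb, in arrays that share none with the Col and jaz10 groups. Whether the double mutant carries the same jaz10 allele is not labelled. Over those 10 arrays no gene was called by limma (0.0%), with 282 at an unadjusted p under 0.05. JOX4 differed by 1.17 log2 and JOX3 by 0.90 there, with adjusted p of 0.952 and 0.959. Without the arrays labelled phyb control 2 and phyb MeJA 3, 18 genes were higher (0.316%) and 2 lower (0.0352%), JOX4 by 1.203 (adjusted p = 0.0353) and JOX3 by 0.95 (adjusted p = 0.0543). Those 2 arrays were left out because their treatment response goes against their labels, a choice made after the data were seen. JOX levels were far higher after MeJA in Col, jaz10 and jaz10phyb, so calls without the 2 arrays are no independent evidence.

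Among the other measured genes of jasmonate synthesis and signalling none was called. JMT, which makes MeJA from jasmonic acid, read 15.2 and 28.0 in Col control and 30.4 and 50.7 in jaz10 control, with 0.53 ± 0.22 log2 over both treatments (limma adjusted p = 0.581) and 0.35 without jaz10 control replicate 2. OPCL1, an enzyme of jasmonate synthesis in the peroxisome, read 1222 and 1324 in Col MeJA and 1521 and 1494.6 in jaz10 MeJA, with overlapping control arrays and 0.27 ± 0.11 log2 over both (adjusted p = 0.56). With the beta-oxidation enzyme AIM1 at 0.04 log2, the 3 tested genes of the 23 in jasmonate synthesis had positive values and a median of 0.27. The transcription factors MYC3 and MYC4, the 2 tested of 29 signalling genes, differed by 0.06 and -0.13.

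Among 7 tested genes of the MYC-driven wound and defence list, 5 had positive values with a median of 0.17 log2, and none was called. The jacalin-related lectin JAL23 read 1187 and 1086 in Col MeJA and 1896 and 1765 in jaz10 MeJA, a difference of 0.69 ± 0.24 after MeJA (limma adjusted p = 0.291). Its relative JAL22 went the other way, at -0.40 over both treatments (adjusted p = 0.559). NAI1, a transcription factor for endoplasmic reticulum bodies, and CHAT, which makes the leaf volatile hexenyl acetate, differed by 0.27 and 0.20. BSMT1, which methylates salicylate and benzoate, read 7.99 and 6.76 in Col control against 11.9 and 10.3 in jaz10 control, and 59.5 and 58.9 against 46.3 and 58.6 after MeJA. The BSMT1 order of the genotypes was thus opposite in the treatments, without overlap in either, and no contrast was called.

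Plant defensins of the PDF1.2 type are antifungal peptides driven by jasmonate together with ethylene, and are so alike in sequence that their probe sets may share signal. PDF1.2b read 26.1 and 22.0 in Col control, 30.5 and 25.6 in Col MeJA, 41.3 and 58.2 in jaz10 control and 40.9 and 63.2 in jaz10 MeJA. All 4 jaz10 arrays were above all 4 Col arrays, yet the difference of 0.92 ± 0.16 log2 was not called (limma adjusted p = 0.199). PDF1.2, the gene also known as PDF1.2a, read 37.1 and 17.5 in Col control against 62.0 and 97.0 in jaz10 control, and 116 and 66.0 against 81.0 and 84.9 after MeJA. Its control difference of 1.57 ± 0.36 was the largest in control plants (adjusted p = 0.543), and its MeJA difference was -0.08 ± 0.36. Both defensins were higher still in the phyb and jaz10phyb arrays, where PDF1.2b read 101 or more. Col was therefore below all 14 other arrays for PDF1.2b, as for 5 of the 5689 genes (0.0879%). Of 5 tested genes in the list of ethylene-branch genes and antimicrobial peptides, 3 had positive values, with a median of 0.11, and none was called. The thionin THI2.2, another antimicrobial peptide, differed by -0.11 (adjusted p = 0.767).

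In control plants no gene was called at an adjusted p under 0.05 by limma (0.0%), with 195 higher and 162 lower at an unadjusted p under 0.05. The 3 higher genes with the lowest p were JOX3, JOX4 and AT4G31490, the last with 37.4 and 39.6 in Col and 62.5 and 60.6 in jaz10 (0.66 ± 0.10 log2, adjusted p = 0.21). The 3 lower ones were AT3G27240 at -0.81 (adjusted p = 0.124), AT3G27230 at -0.93 (adjusted p = 0.358) and AT3G05250 at -0.70 (adjusted p = 0.358). Of 5689 genes, 5 differed by more than 1 log2. These were PDF1.2, JOX3, AT4G02360 and PDF1.2b, with values of 1.57, 1.102, 1.09 and 1.003, and the expansin EXPA8, a cell wall loosening protein, at -1.18.

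After MeJA, 2 genes were higher (0.0352%) and 1 was lower (0.0176%) by limma, together 0.0527%, with 279 and 477 at an unadjusted p under 0.05. JOX4 was the higher gene with the lowest p, and AT3G27210 the lower one. The other was UGT79B1 (AT5G54060, UF3GT in the annotation), a glycosyltransferase that decorates anthocyanins, the red and purple pigments. UGT79B1 read 31.0 and 28.6 in Col MeJA and 53.9 and 54.7 in jaz10 MeJA, but 17.3 and 17.4 in Col control and 14.9 and 16.7 in jaz10 control. The genotypes did not overlap after MeJA, with a difference of 0.84 ± 0.11 log2 (adjusted p = 0.0489). In control plants it was -0.13, and the difference between treatments, 0.97, was not called (adjusted p = 0.175). The call held in 4 of 18 alternative settings, and leaving out each of the 8 arrays in turn ended it every time, with adjusted p from 0.0915 to 0.412. In the phyb and jaz10phyb arrays UGT79B1 read under 20 after MeJA as well.

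The 2 other anthocyanin genes tested of 33 listed were dihydroflavonol reductase (DFR) and the glucosyltransferase UGT75C1. Their means after MeJA had the same order of genotypes. DFR read 494 and 442 in Col MeJA against 587 and 575 in jaz10 MeJA, and 355 and 240 against 197 and 285 in control plants. UGT75C1 read 48.2 and 41.3 against 48.8 and 52.8 after MeJA. None of the DFR and UGT75C1 contrasts passed the limma test. The median of the 3 anthocyanin genes was 0.31 log2 after MeJA and -0.13 in control plants, where all genes had -0.035 and -0.0044.

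No gene was called for the difference between the MeJA and the control difference (0.0% of 5689, limma), with 620 at an unadjusted p under 0.05. Apart from UGT79B1, the lowest p among positive values belonged to AT3G28590 at 1.04 and AT4G33666 at 1.46, and among negative ones to AT5G22480 at -1.204, AT4G13180 at -1.29 and AT1G25520 at -1.02, with adjusted p from 0.175 to 0.227. AT4G13180, for one, read 32.1 and 37.8 in Col control and 126 and 120 in Col MeJA. In jaz10 it read 42.3 and 53.2 in control and 67.0 and 68.4 after MeJA, so both jaz10 pairs lay between the Col pairs. Across the 5689 genes the control and the MeJA difference, which share no array, had the same sign in 49.4%, and their Pearson correlation across genes, which are not independent, was -0.03. The 4 genes called over both treatments lie far along the shared diagonal. This follows from the contrast that called them, which is the mean of both differences.

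**Figure D2:**
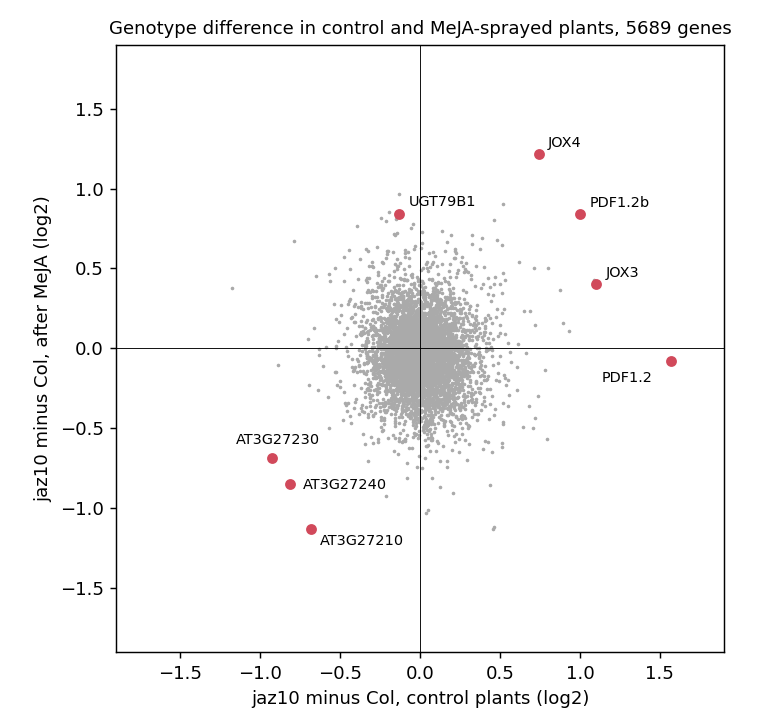
Difference between jaz10 and Col on the log2 scale for 5689 genes, in control plants on the horizontal axis and after MeJA on the vertical axis, each from 2 arrays per genotype. Named genes are in red: JOX4, JOX3 and PDF1.2b lie in the upper right and AT3G27210, AT3G27230 and AT3G27240 in the lower left, whereas UGT79B1 and PDF1.2 lie near an axis.

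Genes of the abscisic acid, cold and dehydration list had opposite orders of genotypes in the treatments, though none of the 5 tested of 36 was called in any contrast. All 5 had positive values in control plants, with a median of 0.21 log2, and all 5 had negative ones after MeJA, with a median of -0.39, beside -0.0044 and -0.035 for all genes. The control median turned on 1 jaz10 array: it was 0.08 without jaz10 control replicate 2 and 0.35 without jaz10 control replicate 1, with 5 of 5 positive each time. Over both treatments 2 of the 5 were positive, and 0 without jaz10 control replicate 2. COR47, a dehydrin, read 991 and 1008 in Col control, 1017 and 1069 in jaz10 control, 673 and 586 in Col MeJA and 421 and 465 in jaz10 MeJA. COR15B, a chloroplast protein of cold tolerance, read 661 and 671 against 713 and 974 in control plants, and 563 and 644 against 468 and 449 after MeJA. For COR47 and COR15B the genotypes did not overlap in either treatment. The MeJA differences were -0.51 ± 0.11 for COR47 and -0.39 ± 0.15 for COR15B (limma adjusted p = 0.183 and 0.317), and the difference between treatments had adjusted p of 0.321 and 0.322.

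Among the lists of photosynthesis, sugar and cell wall genes none was called over both treatments. The 7 tested photosynthesis genes had a median of 0.03 log2 over both treatments, with 5 positive values. Of 27 tested genes of the photosystems, 24 had positive values, against 43.5% of all genes, with a median of 0.05. Centring the arrays on their medians moved the share of all genes to 58.7% and their median from -0.02 to 0.03. That shift is about as large as the photosystem median. The 11 tested genes of sugar transport and starch had a median of -0.03 with 5 positive, and the 9 of cell wall loosening and synthesis 0.11 with 5 positive. EXPA8 read 132 and 158 in Col control against 96.0 and 41.9 in jaz10 control, and 8.20 to 14.6 in the MeJA arrays of both genotypes. TRY, a repressor of trichome fate, read 67.8 and 58.7 in Col control against 42.5 and 43.7 in jaz10 control, and overlapped after MeJA. STZ (ZAT10), a zinc finger gene of stress responses, read 53.6 and 34.3 against 55.0 and 114 in control plants and 192 and 152 against 210 and 232 after MeJA (0.62 ± 0.22 over both, adjusted p = 0.519). Without jaz10 control replicate 2, the value over both treatments was 0.36 for STZ, and that of EXPA8 was -0.10 in place of -0.40. MSRB9, a methionine sulfoxide reductase, read 12.8 and 17.9 against 16.5 and 18.4 in control plants and 188 and 215 against 314 and 346 after MeJA (0.45 ± 0.11 over both, adjusted p = 0.429). The glucosinolate, shade and auxin, circadian clock, sulfur and iron, heat shock and oxidative stress, and trichome lists had 1 to 3 genes tested each and no call, with medians over both treatments from -0.22 for the 2 shade and auxin genes to 0.30 for the 2 heat shock and oxidative stress genes. The salicylate defence list had none tested.

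MeJA-responsive genes were then picked in the jaz10phyb arrays, which lie outside the comparison but come from plants that also carry a jaz10 mutation. The genes were thus not picked independently of the jaz10 genotype. There, 177 genes were higher and 74 lower by more than 1 log2 after MeJA, without overlap of the 2 arrays per group. Of the 177 raised genes, 149 (84.2%) had higher signal in jaz10 than in Col over both treatments, against 43.5% of all genes, with a median of 0.14 log2 against -0.02. The genotypes did not overlap in either treatment for 24 of the 177 with higher signal in jaz10 and for none with lower signal, where all genes had 2.81% and 4.54%, and 2 were called, JOX4 and JOX3. Of the 74 lowered genes, 22 (29.7%) were higher in jaz10, and the median was -0.10. Apart from the JOX genes, the displacement was mostly small: the quartiles of the raised genes were 0.05 and 0.25, against -0.10 and 0.06 for all genes.

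The raised genes had a median of 0.14 in control plants (131 of 177 positive) and 0.15 after MeJA (132 positive). The control value depended on 1 array: without jaz10 control replicate 2 it was 0.01, with 92 of 177 positive, and without jaz10 control replicate 1 it was 0.27 with 145 positive. Over both treatments the median without jaz10 control replicate 2 was 0.08, with 127 positive, and without jaz10 control replicate 1 it was 0.23. After MeJA it lay between 0.14 and 0.29 over 19 alternatives, the highest with arrays centred on their medians. That setting also moved the median of all genes after MeJA, from -0.035 to 0.10. The lowered genes had a median of -0.01 in control plants and -0.16 after MeJA, and without Col MeJA replicate 1 it was -0.09 after MeJA and -0.05 over both treatments. Without jaz10 control replicate 2 their control median was 0.04.

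**Figure D3:**
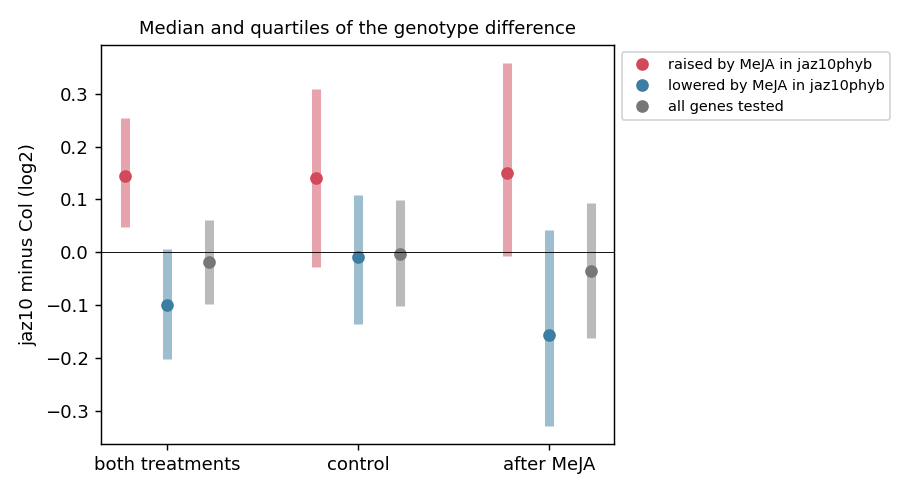
Difference between jaz10 and Col (log2) over both treatments, in control plants and after MeJA, with points for the median and bars for the quartiles of 177 genes raised by MeJA in jaz10phyb, 74 genes lowered by it and all 5689 genes tested. The raised genes are displaced upward in each comparison (medians 0.14, 0.14 and 0.15), and the lowered genes downward over both treatments and after MeJA (-0.10 and -0.16).

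Genes with the next lowest p over both treatments and no overlap in either were not called, and most have no symbol. On the higher side, after PDF1.2b, AT5G19230 read 32.6 and 29.9 in Col control, 42.6 and 44.7 in jaz10 control, 74.7 and 72.7 in Col MeJA and 101 and 100.3 in jaz10 MeJA (0.46 ± 0.072 log2, limma adjusted p = 0.128). AT4G02360 read 12.4 and 7 against 19.7 and 22.5 in control plants, and 187 and 168 against 236 and 242 after MeJA (0.76 ± 0.15, adjusted p = 0.256). AT2G32487, AT1G03400, AT5G50915, AT4G39780 and AT4G04423 differed by 0.38 to 0.52. AT5G19230, AT4G02360, AT2G32487 and AT5G50915 were higher after MeJA than in control by more than 1 log2 in both genotypes, and AT1G03400 and AT4G04423 were lower, so the genes with higher signal in jaz10 include both kinds.

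On the lower side, after the chromosome 3 genes, AT5G47380 read 84.0 and 85.1 in Col control against 68.3 and 67.8 in jaz10 control, and 59.3 and 57.5 against 41.5 and 37.6 after MeJA (-0.43 ± 0.072 log2, limma adjusted p = 0.18). AT2G44770 had all 4 jaz10 arrays, at 61.0 to 75.6, below all 4 Col arrays, at 78.3 to 107 (-0.40, adjusted p = 0.256). AT5G53090, AT4G09760, AT3G56080, AT5G02540 and AT3G44970 differed by -0.53 to -0.41. In the phyb background, with all 10 arrays, 6 of the 10 higher genes and 6 of the 10 lower genes had the same direction, and 7 and 4 had it without the 2 phyb arrays. Of all genes, 41.4% were above 0 and 58.6% below it with the 10 arrays, and 44.1% and 55.9% without those 2, so the count of lower genes was near or under the share of all genes.

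The 2 genes that were lower over both treatments belong to a group of neighbours. AT3G27240 read 229 and 217 in Col control, 251 and 233 in Col MeJA, 121 and 133 in jaz10 control and 143 and 126 in jaz10 MeJA. It was lower by -0.83 ± 0.081 log2, 0.563-fold, with a limma adjusted p of 0.00959. AT3G27210 read 64.9 and 53.3 in Col control, 67.5 and 61.5 in Col MeJA, 34.9 and 37.6 in jaz10 control and 26.4 and 31.8 in jaz10 MeJA. For both genes all 4 jaz10 arrays were below all 4 Col arrays. MeJA and control arrays were close, with MeJA minus control at 0.13 and -0.31 log2 for AT3G27210 and at 0.12 and 0.08 for AT3G27240 in Col and jaz10. AT3G27210 differed by -0.90 ± 0.098 over both treatments (adjusted p = 0.0147) and by -1.13 ± 0.14 after MeJA (adjusted p = 0.0489). The AT3G27240 call ended without Col control replicate 1, Col MeJA replicate 1 or jaz10 MeJA replicate 2 (adjusted p = 0.0636, 0.0807 and 0.0635). That of AT3G27210 over both treatments held without either control replicate 2 and ended without any other array, with adjusted p of 0.0504 to 0.116, and its MeJA call ended without each of the 8 arrays, with 0.0809 to 0.412.

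Between them lies AT3G27230, at 87.5 and 88.2 in Col control, 102 and 104 in Col MeJA, 37.1 and 56.4 in jaz10 control and 62.3 and 65.0 in jaz10 MeJA. Its arrays were also apart, but the difference of -0.81 ± 0.12 log2 was not called (limma adjusted p = 0.114). It was called in 7 of 20 alternatives, among them the fits of 18 and 16 arrays (adjusted p = 0.0395 and 0.00815) and those without jaz10 control replicate 1 or 2 (0.0382 and 0.00739). The annotation has AT3G27230 and AT3G27240 overlapping at their ends. AT3G27200 and AT3G27220 were under the signal minimum and were not tested. AT3G27200 read 27.9 to 37.9 in Col and 15.5 to 19.6 in jaz10, and AT3G27220 read 30.3 to 42.3 in Col and 16.6 to 20.3 in jaz10. The 5 genes were thus at 0.534 to 0.572 of the Col level. The next measured genes on either side, AT3G27150 and AT3G27250, read under 7 in all arrays and overlapped between genotypes. At such low signal a genotype difference could hardly be seen, so these genes do not show where the group ends.

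These 5 neighbours, singled out after their values were seen, were the longest run of adjacent measured genes whose jaz10 arrays all lay on one side of all Col arrays. Among 16505 measured genes in gene order, 245 were lower that way (1.48%) and 140 higher (0.848%). There were 5 other runs of more than 1 gene, each of 2 lower genes. The phyb and jaz10phyb arrays had about the jaz10 level at all 5 genes. AT3G27240 read 114 to 141 in phyb and 125 to 152 in jaz10phyb, and jaz10phyb differed from phyb by 0.07 log2. The 4 Col arrays were above all 14 others at each of the 5, which was so for 7 of the 5689 genes tested (0.123%). The lower signal therefore did not follow the jaz10 label alone, and its cause was not tested.

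**Figure D4:**
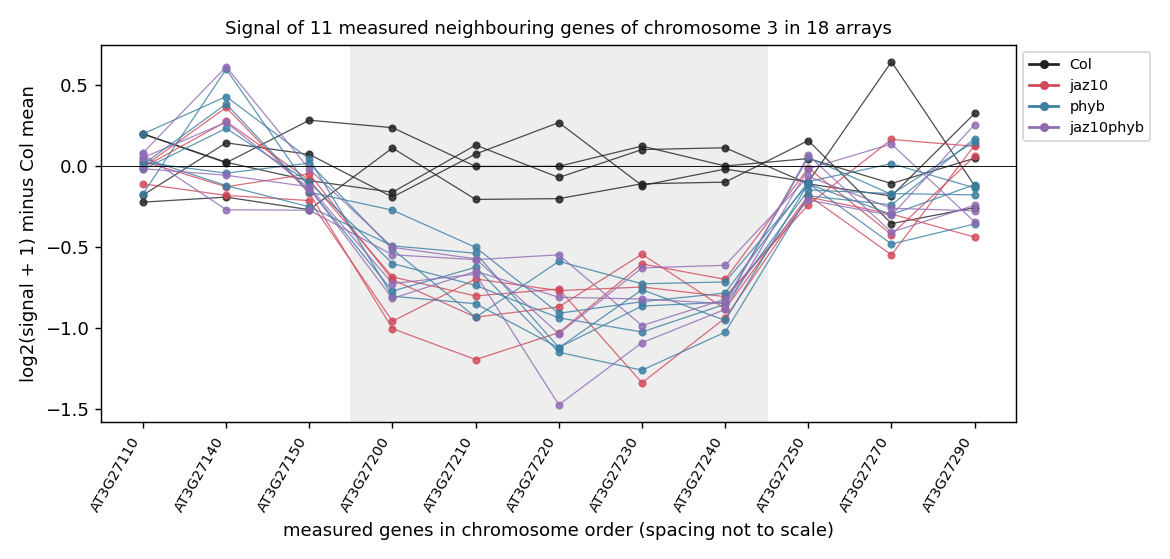
Signal of 11 measured neighbouring genes of chromosome 3 in gene order, as log2(signal + 1) minus the mean of the 4 Col arrays, with a line for each of the 18 arrays. At the 5 shaded genes the jaz10, phyb and jaz10phyb arrays all lie below the Col arrays, and outside the shading the genotypes overlap. Apart from AT3G27110, the genes outside the shading are so dim that a difference could hardly show there.

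Where the jaz10 difference itself was compared between the plants with and without phytochrome B in a fit of all 18 arrays, 5 genes were called by limma, all with a lower value in the background with phytochrome B (0.0879%). AT3G27240 and AT3G27210 were among them, at -0.90 and -0.99 log2 (adjusted p between 0.0164 and 0.0289 for the 5 genes). Neither JOX gene was called there, with -0.19 ± 0.66 log2 for JOX4 and -0.15 ± 0.99 for JOX3. Errors of that size cannot show whether the backgrounds differ at these genes. With 16 arrays, without phyb control 2 and phyb MeJA 3, the errors were smaller and neither JOX gene was called. The values were then -0.225 ± 0.186 log2 for JOX4 and -0.19 ± 0.20 for JOX3 (limma adjusted p = 0.792 and 0.859). Because Col is on one side of this contrast and stands apart from the other 3 genotypes at the chromosome 3 genes, the contrast rests on the same Col arrays as that observation.

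Probe sets without a listed gene held the largest called differences between jaz10 and Col. With all 14444 probe sets past the minimum in the fit, 4 were called higher (0.0277%) and 2 lower (0.0138%) by limma over both treatments, together 0.0415%, of which only JOX4 has a gene name here. Probe set 13545569 read 31.7 and 22.1 in Col control, 33.3 and 30.2 in Col MeJA, 118 and 128 in jaz10 control and 198 and 217 in jaz10 MeJA. It was higher by 2.42 ± 0.12 log2, or 5.35-fold (adjusted p = 0.00714). It also read 147 to 263 in the jaz10phyb arrays and 24.3 to 57.2 in the phyb arrays. All 8 arrays labelled jaz10 or jaz10phyb were thus above all 10 others, as for only 1 further probe set past the minimum (2 of 14444, 0.0138%), AT5G46600, which had a far smaller gap between the arrays. In the other direction 1 probe set past the minimum did so (0.00692%). The signal of this probe set followed the jaz10 label in all 18 arrays.

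Probe set 13379075 went the other way, at 21.8 to 62.2 in Col and 5.01 to 8.32 in jaz10, 0.194-fold (limma adjusted p = 0.0222). It read 7.35 to 13.6 in phyb and 4.52 to 7.36 in jaz10phyb, so Col stood apart from the 3 mutant genotypes. The same held for probe set 13433827, at 522 to 618 in Col and 287 to 319 in jaz10 (adjusted p = 0.0239), with 245 to 333 in the other arrays. Probe set 13417641, with no listed gene, was higher in jaz10 by 0.88 ± 0.069 log2 (limma adjusted p = 0.0239), at 56.55 to 89.3 in Col and 127 to 134 in jaz10. It read 173 to 239 in phyb and 193 to 237 in jaz10phyb, so there too Col stood apart from the 3 mutant genotypes. In all, Col was above all 14 other arrays for 13 probe sets past the minimum (0.09%) and below them for 7 (0.0485%).

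**Figure D5:**
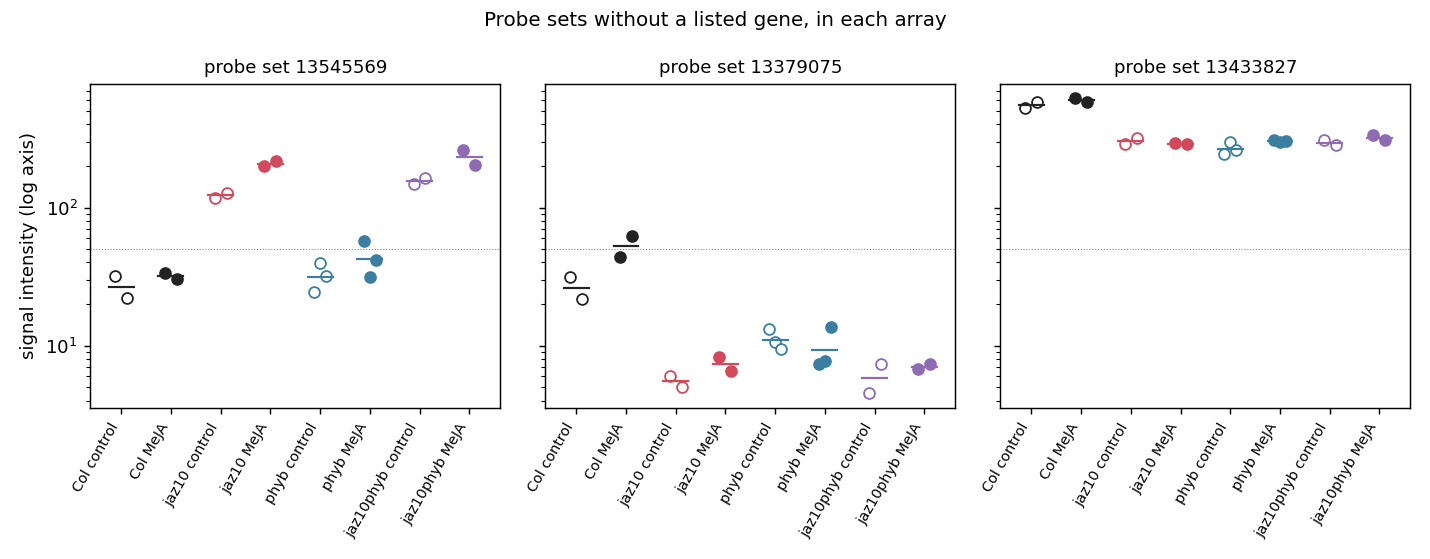
Signal intensity (log axis) in each of the 18 arrays of 3 probe sets with no listed gene that were called between jaz10 and Col, with open points for control, filled points for MeJA, bars for the group mean on the log2 scale and a dotted line at 50. Probe set 13545569 is high in the jaz10 and jaz10phyb arrays alone, and the other probe sets are high in the Col arrays alone.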

How the data were processed

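The authors deposited linear signal intensity from Arabidopsis Gene 1.0 ST arrays (1 colour), per the labels' protocols. Per the submitters' processing notes the software was Affymetrix Expression Console. Its version, its summarisation method and the build are not given in any source used here. Per the series' design text, the authors left out genes with absent calls and low signal; that filter is not visible in the table, which holds values from 1.51 to 18014.

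From the deposited intensities, log2(value + 1) was computed, so fold changes of dim genes are understated. The platform annotation paired 16722 of 38408 probe sets with 1 gene, 759 with several and 20927 with none. Symbols were updated through a TAIR10.1 table that covered 16574 single-gene probe sets and served for names and gene order only. The JOX, UGT79B1 and UGT75C1 names, which it lacks, were added by identifier. For each gene the single-gene probe set with the highest mean was kept if it reached 50 in any of the 18 arrays, which left 5689 genes, 833 with a symbol.

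limma 3.58.1 in R 4.3.3 was fitted with 4 group means to the 8 Col and jaz10 arrays (4 residual degrees of freedom), with Benjamini-Hochberg adjustment over the 5689 genes and calls at an adjusted p under 0.05. The contrast over both treatments is the mean of the control and the MeJA difference. The model was tested on simulated data. Depth does not apply to arrays; 2 arrays per group limit the precision. No replicate columns were identical (median difference between replicates 0.12 to 0.147 log2).

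The comparison, the gene lists and the naming rule were chosen with earlier results of these data known. Named genes were 14 listed ones (the mutated genes and genes of the jasmonate response), the called genes without overlap of genotypes in either treatment filled to 10 per direction by lowest p, up to 6 called genes or the 3 lowest p per direction of each other contrast, and, from every list, the 4 members of lowest p. Genes outside that rule, such as the neighbours on chromosome 3 and the unnamed probe sets, were chosen after their values were seen. Families could be matched only by symbol. No sequences were printed or searched, since the reference used here holds none.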

Additional observations from a re-analysis of the deposited data

Results flagged for a closer look

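The jaz10 difference from its control was compared between plants with phytochrome B (jaz10 against Col) and without it (jaz10phyb against phyb) by an interaction contrast in a limma fit of all 18 arrays, chosen after the data were seen. It differed for 5 genes, by the value with phytochrome B minus the value without: -0.99 log2 for AT3G27210, -0.90 for AT3G27240, -1.23 for AT1G48100, -1.15 for AT1G79520 and -0.89 for AT3G24420. The first pair belongs to the chromosome 3 genes at which Col stood apart from all other arrays. AT1G48100 read 39.4 to 53.6 in Col and 30.1 to 35.8 in jaz10, and jaz10phyb was above phyb by 0.78 log2. For AT1G79520 and AT3G24420, jaz10 differed from Col by -0.47 and -0.27, and jaz10phyb from phyb by 0.68 and 0.62.

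A pair of probe sets with no listed gene differed strongly between the genotypes, in data that the gene-level comparison did not use. Probe set 13545569 was higher in jaz10 by 2.42 log2. Probe set 13346888 was higher by 2.51 log2 (limma adjusted p = 0.0408), with 10.3 to 17.1 in Col and 38.9 to 133 in jaz10. In control plants it read 7.60 to 32.4 in phyb and 39.6 and 56.4 in jaz10phyb, without overlap, and after MeJA 48.9 to 117 in phyb and 103 and 157 in jaz10phyb, with overlap.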

How the results depend on the processing

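The values of named genes were recomputed 1565 times under alternatives. Of these, 1442 stayed on their side of the threshold, with called values keeping direction and uncalled values staying within their standard error. Such uncalled values could change sign, as for DFR, which ran from -0.13 to 0.15 log2. Further, 62 were no longer called, 9 became called, 52 uncalled values moved by more than their error, and none of the called values reversed. Many of the alternatives change only the error or the set of genes and leave the difference itself as it was. In those a value could neither move nor reverse, so these counts overstate how firm the values are. The count of 4 genes over both treatments was 1 with no signal filter and 0 by unadjusted p under 0.05 with at least a 2-fold change, and 1 to 5 with an array left out, with 1 without Col MeJA replicate 1 or jaz10 MeJA replicate 2 and 2 without Col control replicate 1, Col MeJA replicate 2 or jaz10 MeJA replicate 1. The count of 0 in control plants was 3 with a minimum of 100, 2 with 16 arrays (without phyb control 2 and phyb MeJA 3), 2 with an intensity trend and robust prior, 5 by the 2-fold rule, and 0 to 3 with an array left out, the 3 without jaz10 control replicate 1. The count of 3 after MeJA was 0 with no filter, 7 with a pseudocount of 16, 5 with 16 arrays, 18 with a trend and robust prior, 1 with all probe sets and 6 by the 2-fold rule, and 0 to 1 with any array left out: 0 without any of the MeJA arrays and 1 without any of the control arrays. The count of 0 for the difference between treatments was 8 with a trend and robust prior, 1 with all probe sets and 26 by the 2-fold rule, and 0 with each array left out. The causes were not tested.

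Replicate numbers did not pair the samples: correlations of replicate differences between groups ran from -0.02 to 0.23. With the replicate number as a block, 3 genes were called over both treatments, 1 after MeJA, and 0 in the other contrasts; the JOX3 adjusted p was then 0.0683.

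Chosen after the data were seen were the comparison of jaz10phyb with phyb, that of the backgrounds, and the search along the chromosome. The count of 0 genes for jaz10phyb against phyb was 20 with 8 arrays, 11 in the fit of all 18 arrays and 31 with 16. The count of 5 for the difference between backgrounds was 12 with 16 arrays. The calls of AT3G27240 and AT3G27210 held in 15 of 20 and 11 of 19 alternatives. The JOX control signals and UGT79B1 in Col were under 50, which limits the precision of their fold changes.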
